A study of Oryza sativa with 12 samples.

Results

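Ethylene receptors and the proteins that carry their signal were followed as 10 rice genes, chosen by their locus IDs: 5 receptor genes (ERS1, ERS2, ETR2, ETR3 and ETR4), 2 CTR1-like kinase genes, EIN2, and the transcription factor genes EIL1 and EIL2. All 10 were among the 55986 IDs counted for the mutant ossh1 and its wild type, and 8 were among the 11688 IDs listed for the mutant oscct and its control. RNA came from abscission zones of Oryza sativa, the tissue where the grain detaches, collected on the day of flowering. The 4 groups of 3 libraries were the mutant ossh1 beside the wild type WT, and the mutant oscct, called oscct22 in the design text, beside the wild type CK. Each library was a pool of 5 plants. The labels give mutants and wild types the same treatment and field growth at one or the other of a pair of places without tying a library to either, and for each line the sources used here give neither allele nor background.

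Ethylene is perceived at the endoplasmic reticulum by receptors related to bacterial histidine kinases. The receptors are negative regulators: without ethylene they keep the Raf-like kinase CTR1 active, and CTR1 phosphorylates the membrane protein EIN2 and holds it inactive. When ethylene binds, this block is lifted, part of EIN2 is released, and transcription factors of the EIN3 and EIL family accumulate and switch on ethylene-responsive genes. Receptors of subfamily I (ERS1 and ERS2 here) keep the features of a histidine kinase, whereas those of subfamily II (ETR2, ETR3 and ETR4) have a degenerate kinase domain. In many flowering plants ethylene promotes the shedding of organs.

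The ossh1 libraries held from 27044341 to 28600944 counts and the WT libraries from 30382846 to 32055561. Listed values per library came to 12526152 to 12812857 in oscct and 12943437 to 13318397 in CK. These last sums are not depths, because the oscct table lists only selected rows, so an absent gene is a gene not listed. The selection step is not stated, and 99.2% of the IDs tested there differed between the groups at an adjusted p of 0.05 (edgeR). The locus IDs were not paired with names in the files or the reference table, so the genes mutated in ossh1 and oscct and tissue markers were not analysed here. Line, growing place and mutation cannot be told apart in either comparison, and in bulk tissue fewer cells of a type and less RNA per cell cannot be told apart either.

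The comparison of ossh1 with WT asked how the genes of ethylene perception and signalling differ in the abscission zone of the mutant. ERS2, ETR3, EIL1 and ERS1 were higher in ossh1, and ETR2 and EIL2 were lower. All of these changes were below 1.5-fold. EIN2 and both CTR1-like genes did not pass the test, and ETR4 had almost no reads. Of 9 genes with enough reads to be tested, 4 were higher and 2 lower at an adjusted p of 0.05 (edgeR's quasi-likelihood test, Benjamini-Hochberg adjustment over all 22669 IDs tested). Over all tested IDs, 58.3% passed, 29.2% higher and 29.1% lower. None of the 9 genes, against 25.8% of all tested IDs, both passed and reached 1.5-fold. The libraries of ossh1 and WT did not overlap for 6 of the 9 genes, and for 62.3% of all tested IDs. The median log2 fold change was 0.14 over the 9 genes (SD 0.3) and -0.01 over all IDs (SD 0.9).

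**Figure D1:**
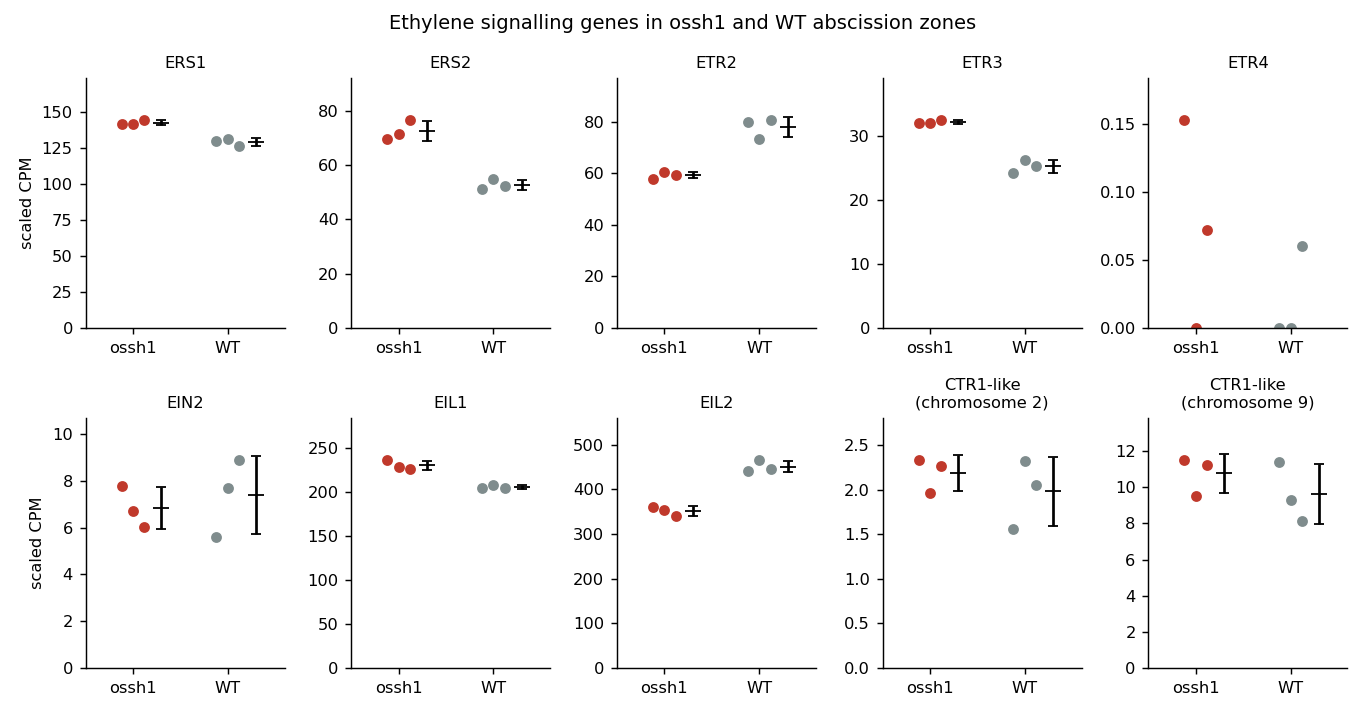
Scaled CPM of the 10 genes in the 3 ossh1 (left, red) and 3 WT libraries (right, grey); points are libraries, and the black mark and bar are the mean and SD, left out for ETR4. Each panel has its own axis from 0. The groups are apart for ERS1, ERS2, ETR2, ETR3, EIL1 and EIL2 and overlap for EIN2 and both CTR1-like genes, while ETR4 has from 0 to 4 counts per library.

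Among the receptors of subfamily I, ERS2 (LOC_Os05g06320, chromosome 5) had 69.6, 71.6 and 76.5 CPM (read counts scaled by library size and composition) in ossh1, against 51.0, 54.7 and 52.2 CPM in WT. Every ossh1 library was above every WT library. The mean was 72.6 ± 3.57 CPM in ossh1 and 52.7 ± 1.88 CPM in WT (SD, n = 3 each), a 1.38-fold rise (log2 fold change 0.46, SE 0.05, adjusted p = 4.4e-11, edgeR). ERS1 (LOC_Os03g49500, chromosome 3) differed less, with 142, 141.8 and 144.6 CPM in ossh1, against 130, 131.3 and 126.2 CPM in WT. The libraries did not overlap, and the change was 1.1-fold (SE 0.04 on the log2 scale, adjusted p = 0.00063, edgeR). Scaled by library totals alone, the log2 fold change of ERS1 was 0.05 and no longer passed the test (adjusted p = 0.257, edgeR).

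In subfamily II the genes went different ways. ETR2 (LOC_Os04g08740, chromosome 4), a receptor linked in rice to flowering time and starch storage in the stem, had 58.0, 60.3 and 59.4 CPM in ossh1, against 79.9, 73.4 and 80.7 CPM in WT. All ossh1 libraries lay below all WT libraries. Its mean was 59.2 ± 1.19 CPM in ossh1 and 78.0 ± 3.98 CPM in WT (SD, n = 3 each), a fall of 0.4 on the log2 scale (SE 0.05, adjusted p = 8.53e-10, edgeR). ETR3 (LOC_Os02g57530, chromosome 2) had 32.0, 31.9 and 32.5 CPM in ossh1, against 24.2, 26.2 and 25.3 CPM in WT, again without overlap. It was 1.27-fold higher in ossh1 (SE 0.06 on the log2 scale, adjusted p = 7.14e-06, edgeR). ETR4 (LOC_Os07g15540, chromosome 7) had 4, 0 and 2 counts in ossh1 and 0, 0 and 2 counts in WT. Counts this close to 0 allow no comparison at this depth. Here 3 counts in a library, taken as the limit of detection, equal 0.0936 to 0.111 CPM by library total alone. These limits cover counting error only.

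Downstream of the receptors, the CTR1-like kinase genes and EIN2 had few reads. The CTR1-like gene on chromosome 9 (LOC_Os09g39320) had 11.5, 9.53 and 11.2 CPM in ossh1, against 11.4, 9.3 and 8.13 CPM in WT. The groups overlapped, and the log2 fold change of 0.17 had a 95% interval from -0.06 to 0.39 (adjusted p = 0.207, edgeR). Without WT replicate 1 it was 0.3 and passed the test (adjusted p = 0.0292, edgeR), over a range of 0.0292 to 0.727 for all alternatives. The CTR1-like gene on chromosome 2 (LOC_Os02g32610) had 2.33, 1.96 and 2.26 CPM in ossh1, against 1.56, 2.33 and 2.05 CPM in WT, from 50 to 73 reads per library. Its libraries overlapped too, with a 95% interval from -0.31 to 0.59 (log2 fold change 0.14, adjusted p = 0.601, edgeR), and without WT replicate 1 the value was -0.002.

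EIN2 (LOC_Os07g06130, chromosome 7), the membrane protein through which the ethylene signal passes to the nucleus, had 7.76, 6.72 and 6.0 CPM in ossh1, against 5.59, 7.71 and 8.89 CPM in WT, from 167 to 294 reads per library. The ossh1 libraries all lay within the range of WT. The log2 fold change of -0.12 had a 95% interval from -0.39 to 0.16 (adjusted p = 0.477, edgeR), so a difference within these bounds could not be told from the spread between these libraries. Without WT replicate 3 the value was 0.04. The IDs whose log2 CPM profile over the 6 libraries, centred on its mean, was nearest to that of EIN2 were LOC_Os11g05280 and LOC_Os04g52580, at a root mean square distance of 0.06 log2 units each, the smallest of 22660 IDs. They were chosen for this likeness, which is given as a description.

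The EIN3-like transcription factor genes, which act at the end of the pathway, changed in opposite directions in ossh1. EIL2 (LOC_Os07g48630, chromosome 7), linked in rice to the ethylene response of the coleoptile, had 359.6, 354.0 and 339.1 CPM in ossh1, against 442.0, 465.7 and 444.7 CPM in WT. Every ossh1 library was below every WT library, and EIL2 fell by 0.36 on the log2 scale (SE 0.03, adjusted p = 1.37e-13, edgeR). EIL1 (LOC_Os03g20790, chromosome 3), linked in rice to the ethylene response of the root, had 236.4, 228.1 and 226.3 CPM in ossh1, against 204.1, 208.2 and 204.2 CPM in WT. It was 1.12-fold higher without overlap (SE 0.03 on the log2 scale, adjusted p = 3.26e-05, edgeR), and with library totals the log2 fold change was 0.07 and did not pass (adjusted p = 0.0723, edgeR). The reference table gives the name EIL1 to 2 neighbouring genes of chromosome 3, and the sources used here do not say how reads shared by similar copies were counted. Over all IDs, library totals gave 5257 higher and 8364 lower genes (38.6% higher), against 6629 and 6591 (50.1% higher) with the main scaling.

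The same genes were then compared between oscct abscission zones and those of CK. All 4 listed receptor genes were higher in oscct, ETR3 most, and EIN2 was higher as well. EIL1, EIL2 and the CTR1-like gene on chromosome 2 were lower. ETR4 and the CTR1-like gene on chromosome 9 were not listed. Of the 8 listed genes, 5 were higher and 3 lower at an adjusted p of 0.05 (edgeR, rows of one ID summed), but 99.2% of the 11518 IDs tested in this table passed, 48.9% higher and 50.3% lower, so that passing says no more than being listed. At least 1.5-fold changes were found for 2 of the 8 genes and 51.6% of the IDs tested. The median log2 fold change was 0.23 over the 8 genes (SD 0.58) and -0.09 over all listed IDs tested (SD 1.17), and with library totals the median over all IDs was 0.08. Of the 9 genes tested in ossh1, 8 were listed for oscct, against 47.8% of all IDs tested in ossh1, a difference that was not tested.

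**Figure D2:**
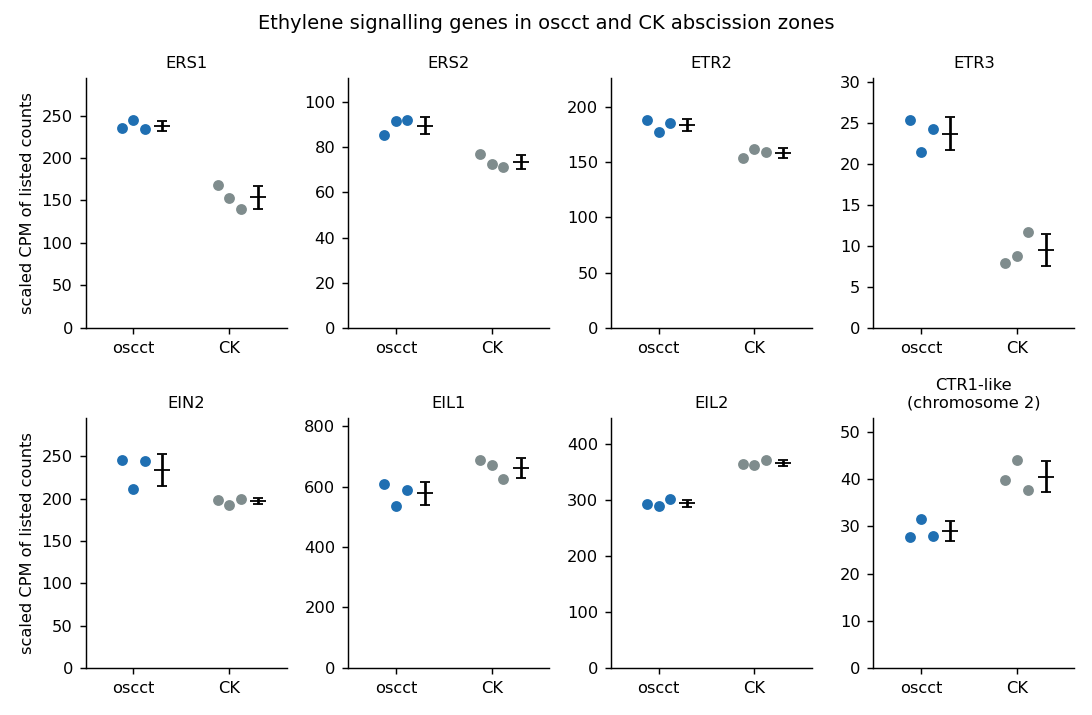
Scaled CPM of listed counts for the 8 listed genes in the 3 oscct (left, blue) and 3 CK libraries (right, grey); points are libraries, and the black mark and bar are the mean and SD. Each panel has its own axis from 0. No gene has overlapping groups, as in 98.3% of the IDs tested in this table, and ETR3 has the widest fold, at 23.7 CPM in oscct and 9.49 CPM in CK.

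ETR3 had 25.4, 21.5 and 24.3 CPM in oscct, against 7.93, 8.85 and 11.7 CPM in CK, where CPM is scaled by the counts listed and not by depth. The lowest oscct library was well above the highest CK library. The mean was 23.7 ± 2.01 CPM in oscct and 9.49 ± 1.96 CPM in CK (SD, n = 3 each), a 2.5-fold rise (log2 fold change 1.32, SE 0.12, adjusted p = 3.01e-08, edgeR). ETR3 was listed in 2 rows, and both were higher in oscct, by log2 fold changes of 1.43 (SE 0.15) and 1.09 (SE 0.3).

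ERS1 had 235.3, 244.7 and 233.8 CPM in oscct, against 167.7, 153.2 and 139.7 CPM in CK. The groups were apart, and ERS1 rose 1.55-fold (log2 fold change 0.63, SE 0.05, adjusted p = 5.19e-09, edgeR). ERS2 had 85.2, 91.4 and 92.0 CPM in oscct, against 76.9, 72.5 and 71.1 CPM in CK, a 1.22-fold rise without overlap (SE 0.05 on the log2 scale, adjusted p = 2.69e-05, edgeR). ETR2 had 188.1, 177.6 and 185.3 CPM in oscct, against 153.7, 162.1 and 158.8 CPM in CK, a 1.16-fold rise (SE 0.04 on the log2 scale, adjusted p = 2.78e-05, edgeR). Its libraries did not overlap either. Both rows of ETR2 were higher in oscct, and the larger one carried 96% of its counts in oscct and 97.6% in CK.

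EIN2 had 245.8, 211.8 and 244.6 CPM in oscct, against 198.9, 193.0 and 199.4 CPM in CK. The groups did not overlap, with oscct replicate 2 nearest to CK, and the rise was 1.19-fold (log2 fold change 0.25, SE 0.05, adjusted p = 0.000118, edgeR). The CTR1-like gene on chromosome 2 had 27.7, 31.5 and 27.9 CPM in oscct, against 39.9, 44.1 and 37.7 CPM in CK. It was lower in every oscct library and fell by 0.48 on the log2 scale (SE 0.07, adjusted p = 1.23e-05, edgeR); its larger row alone fell by 0.23 (SE 0.08, adjusted p = 0.0226, edgeR).

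EIL2 had 292.4, 288.8 and 301.5 CPM in oscct, against 363.7, 362.6 and 371.6 CPM in CK. All oscct libraries were below all CK libraries, both rows of the gene were lower, and EIL2 fell by 0.32 on the log2 scale (SE 0.03, adjusted p = 3.54e-08, edgeR). EIL1 had 610.3, 536.2 and 589.2 CPM in oscct, against 688.4, 671.9 and 626.1 CPM in CK, a narrow gap without overlap. EIL1 fell by 0.19 on the log2 scale (SE 0.04, adjusted p = 0.000409, edgeR). With library totals, which here are sums of listed values and not depths, it fell by 0.03 and did not pass (adjusted p = 0.577, edgeR). The call thus depends on the scaling, but 16 of 17 alternatives kept it, and the log2 fold change ran from -0.278 to -0.026 over them all. Library totals also gave log2 fold changes of 0.45 for ERS2, 0.38 for ETR2, 0.42 for EIN2, -0.15 for EIL2 and -0.31 for the CTR1-like gene, and centring on the range of differences that the table leaves out gave 0.13 for ETR2 and 0.17 for EIN2; all of these passed.

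The changes in the mutants were then set against each other in a model of all 12 libraries that tested the difference of the changes, oscct minus ossh1, each mutant against its own control. Over the 10734 IDs tested in both tables, 84.8% differed at an adjusted p of 0.05, 43.2% with the change in oscct above that in ossh1 and 41.6% below it, so a difference by itself is common here. The model used the same selected rows for oscct and CK, which limits its calls too. Of the 8 genes, 7 differed, 4 above and 3 below, and 3 did so by at least 1.5-fold, against 58.1% of the IDs. ETR2 changed in opposite directions, at 0.22 in oscct and -0.4 in ossh1, a difference of 0.61 log2 units (SE 0.06, 95% interval 0.49 to 0.73, adjusted p = 6.24e-10, edgeR). EIL1 was opposite the other way, at -0.19 in oscct and 0.16 in ossh1, a difference of -0.36 (SE 0.06, adjusted p = 1.98e-06, edgeR), which was -0.09 with library totals and then did not pass (adjusted p = 0.119, edgeR).

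**Figure D3:**
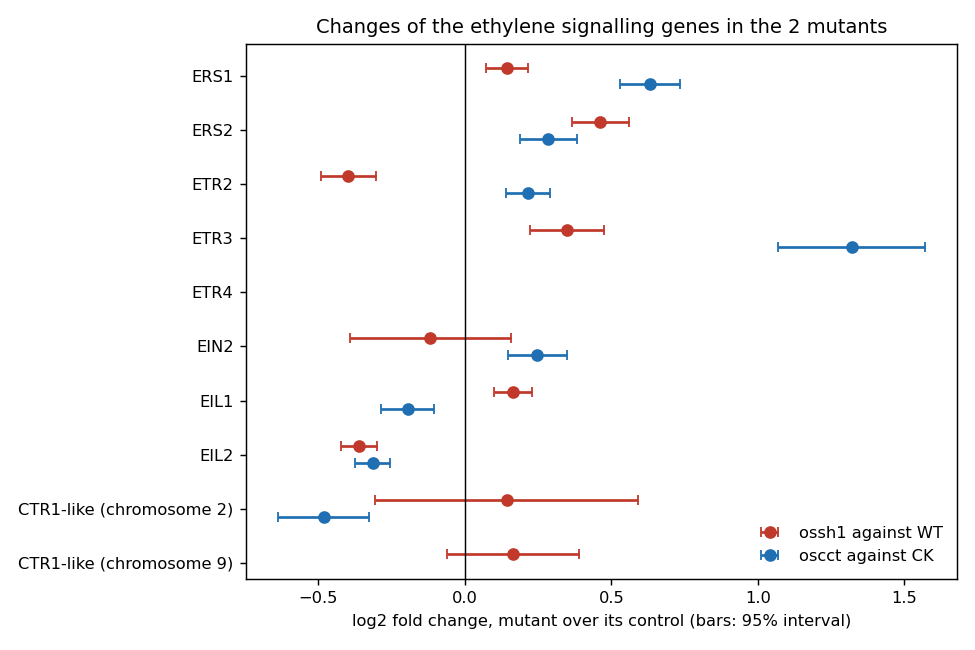
Log2 fold changes of each mutant over its control for ossh1 (red, upper) and oscct (blue, lower), with 95% intervals from edgeR; the vertical line marks no change. ERS1, ERS2 and ETR3 are right of the line and EIL2 left of it in both mutants, with ERS1 and EIL1 at 0.05 and 0.07 in ossh1 under scaling by library totals, while ETR2 is at 0.22 in oscct and -0.4 in ossh1. ETR4 has no value, and the CTR1-like gene on chromosome 9 has one for ossh1 only.

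ERS1 and ETR3 were higher in both mutants with the main scaling and rose further in oscct. The change in oscct exceeded that in ossh1 by 0.49 log2 units for ERS1 (SE 0.06, adjusted p = 8.89e-08, edgeR; 0.75 with library totals) and by 0.97 for ETR3 (SE 0.13, adjusted p = 2.45e-07, edgeR). ERS2 was the reverse, with a rise of 0.29 in oscct and 0.46 in ossh1 and a difference of -0.18 (SE 0.07, adjusted p = 0.0215, edgeR). That call was lost without CK replicate 1, oscct replicate 1, ossh1 replicate 3 or WT replicate 1, with differences from -0.16 to -0.14, and the sign turned to 0.09 with library totals. EIL2 fell in both, with a difference of 0.05 (95% interval -0.04 to 0.14, adjusted p = 0.322, edgeR), but with library totals the difference was 0.31 and passed (adjusted p = 3.89e-07, edgeR).

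For EIN2 the difference was 0.37 log2 units (SE 0.14, adjusted p = 0.0214, edgeR). With library totals it was 0.63. It did not pass without WT replicate 2 (0.34), WT replicate 3 (0.21) or ossh1 replicate 3 (0.28). For the CTR1-like gene on chromosome 2 it was -0.63 (SE 0.19, adjusted p = 0.00418, edgeR), and -0.36 with library totals, where it did not pass (adjusted p = 0.0804, edgeR). Both genes had low counts in the ossh1 table.

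Because directions near 0 depend on the scaling, ratios of counts between genes of the same library were also taken, in which the scaling cancels. The pairs were chosen after their values were seen, so the ratios are a description. An exact permutation test of 3 against 3 libraries cannot give a p below 0.1, so it could not pass and is not used. Since transcript lengths are unknown here, a ratio is not one of transcript numbers. The ratio of EIL1 to EIL2 was 0.657, 0.644 and 0.667 in ossh1, against 0.462, 0.447 and 0.459 in WT, and the mean in ossh1 was 1.44-fold that in WT. The ossh1 and WT libraries did not overlap, which also held for 68.3% of the ratios of all other tested IDs to EIL2. In the other table it was 2.09, 1.86 and 1.95 in oscct, against 1.89, 1.85 and 1.69 in CK, where the groups overlapped, while 85.5% of the ratios of other tested IDs to EIL2 did not. The mean ratio in oscct was 1.09-fold that in CK.

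The ratio of ERS2 to ETR2 was 1.2, 1.19 and 1.29 in ossh1, against 0.639, 0.745 and 0.647 in WT, a 1.81-fold difference. In oscct it was 0.453, 0.515 and 0.496, against 0.5, 0.447 and 0.448 in CK, and these overlapped. The ratio of ERS1 to ETR2 was 2.41 ± 0.0538 in ossh1 and 1.66 ± 0.116 in WT, and 1.3 ± 0.0707 in oscct and 0.972 ± 0.108 in CK (SD, n = 3 each). The ratio of ETR3 to ETR2 was 0.543 ± 0.0117 in ossh1 and 0.324 ± 0.0284 in WT, and 0.129 ± 0.00711 in oscct and 0.0598 ± 0.012 in CK (SD, n = 3 each). Of all other tested IDs, 68.1% had ratios to ETR2 that did not overlap between ossh1 and WT, and 89.2% had ratios that did not overlap between oscct and CK. Among the pairs shown, the ratios of ERS1 and ETR3 did not overlap in either table, and that of ERS2 did not overlap between ossh1 and WT.

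**Figure D4:**
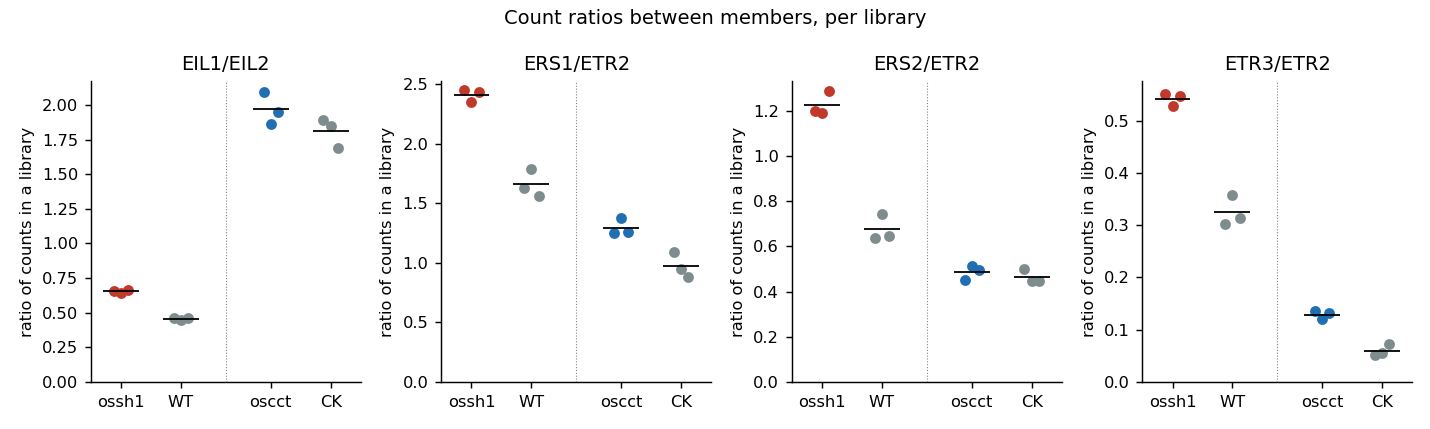
Ratios of counts between pairs of genes in each library (points) with group means (lines), for ossh1 and WT left of the dotted line and oscct and CK right of it; each axis starts at 0. The pairs were chosen after their values were seen; the mean of ERS1/ETR2 is 2.41 in ossh1 and 1.66 in WT, and 1.3 in oscct and 0.972 in CK.

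The tables differed in how many counts they gave the same gene. Summed over its 6 libraries, EIN2 had 13.3 times as many counts in the oscct and CK table as in the ossh1 and WT table, and the CTR1-like gene on chromosome 2 had 7.32 times as many. The median ratio over 10734 IDs tested in both tables was 0.693, with 5% of IDs below 0.0852 and 5% above 5.34, and 98.1% of the IDs had a lower ratio than EIN2. The remaining 6 genes had ratios from 0.262 for ETR3 to 1.25 for EIL1. The tables hold different lines and were counted differently, as whole numbers in one and estimated counts in the other, so their levels were not compared further and the part of each in these ratios was not tested.

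**Figure D5:**
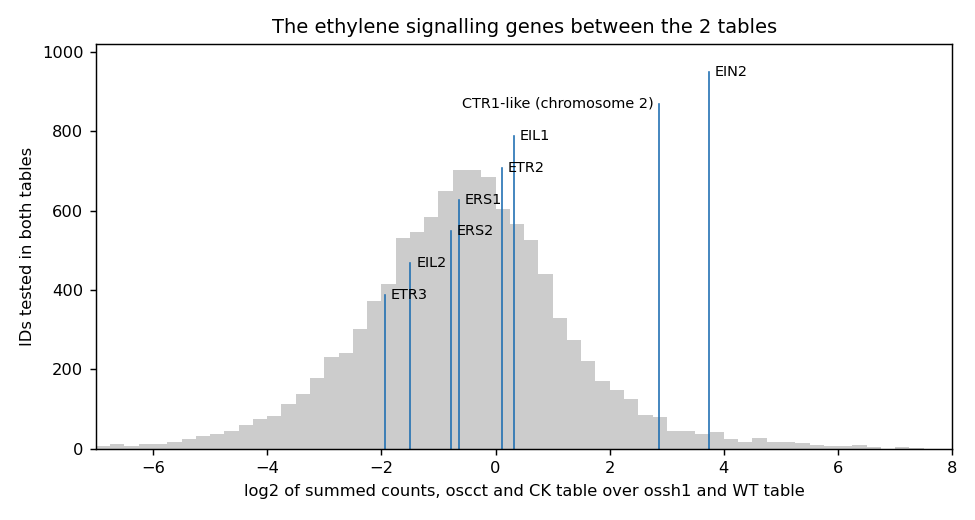
Distribution of the log2 ratio of summed counts in the oscct and CK table to those in the ossh1 and WT table over 10734 IDs (grey bars), with blue lines at the 8 genes, whose height carries no value. EIN2 and the CTR1-like gene on chromosome 2 lie in the right tail, at ratios of 13.3 and 7.32, and the other genes lie within the bulk.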

How the data were processed

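Samples were grouped by their titles. The submitters' processing notes name HISAT2, RSEM 1.3.1, DESeq2 and IRGSP-1.0 without their roles; the sources used here do not say whether counting used strand, so reads of overlapping genes on opposite strands may be mixed. As their first table, the authors deposited whole-number read counts per ID for ossh1 and WT, per the file headers and values. For oscct and CK they deposited estimated counts (58.5% of values whole), 13301 rows for 11688 IDs selected by an unstated step. Over 3193 rows averaging 1000 or more, the widest gap near 0 in the sorted log2 differences ran from 0.01 to 0.15. The bounds of this empty range were taken from the same rows. Its centre was 0.08 and not 0 with TMM scaling of single rows. Rows of one ID were summed and rounded. Mutant and control were fitted pair by pair with edgeR 4.0.16 under R 4.3.3 (filterByExpr, TMM, glmQLFit, glmQLFTest, Benjamini-Hochberg, threshold 0.05), checked on simulated data. The simulation changed few IDs, as many up as down, and selected no rows. It therefore could not check the scaling or the error rate where most IDs pass or rows are selected. The difference of changes used all 12 libraries with each table's own scaling. CPM are computed over the tested IDs, except for ETR4, which was scaled by the counts of all IDs. Intervals are 95%, from edgeR's SE. edgeR's common biological variation was 4.3% (ossh1 table) and 3% (oscct table). No pair of replicates was identical, and all differed by more than sampling noise (chi-square per degree of freedom 1.7 to 4.29). p-values measure changes against the spread between pools of plants. In oscct and in the difference the selection of rows leaves them without the usual error rate. Alternatives were DESeq2 1.42.0, limma-voom with limma 3.58.1, RLE, library totals, testing without a filter or above a mean of 1 CPM, the replicate block, single rows, IDs listed once, one fit of all libraries, centring on the empty range of oscct differences and each library left out. Named genes were the 10 members and the 2 IDs nearest to EIN2. Members, lists and gene names were chosen with earlier results of these data known; names come with the member list, since the reference table paired 0 of the 10 IDs. For the same reason 8 further pathway IDs and 5 marker IDs were not analysed, and no sequences are shown. Figures were drawn with matplotlib 3.10.9.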

Additional observations from a re-analysis of the deposited data

Results flagged for a closer look

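The change in oscct and the change in ossh1 differed by the test of the difference itself for 7 of the 8 genes measured in both (edgeR, Benjamini-Hochberg adjustment), where 84.8% of all IDs did. In log2 units, oscct change minus ossh1 change, the differences were 0.49 for ERS1, -0.18 for ERS2, 0.61 for ETR2, 0.97 for ETR3, 0.37 for EIN2, -0.36 for EIL1 and -0.63 for the CTR1-like gene on chromosome 2. Of these, ETR2 and EIL1 had changes that passed in each comparison in opposite directions, EIL1 with the main scaling and not with library totals. The difference for ERS2 did not pass in 4 of 18 alternatives and turned in 1. That for EIN2 did not pass in 3 of 18, and that for the CTR1-like gene in 1 of 17. EIN2 and the CTR1-like gene also had 13.3 and 7.32 times as many counts in the oscct and CK libraries as in the ossh1 and WT libraries. The part of this in their differences was not tested.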

How the results depend on the processing

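Of 397 values of single genes under the alternatives, 380 kept their direction and their side of the threshold, 12 no longer passed, 2 passed only under the alternative and 3 turned. Those that turned were ERS2 in the difference with library totals (0.087), and, in ossh1 with 1 library left out, EIN2 (-0.284 to 0.036, turned without WT replicate 3) and the CTR1-like gene on chromosome 2 (-0.002 to 0.271, turned without WT replicate 1). With library totals 4 genes passed in ossh1, 7 in oscct and 5 in the difference, against 6, 8 and 7 with the main settings, and the difference over all IDs split into 5615 above and 3413 below (62.2% above), against 4642 and 4460 (51%). With IDs listed once, 4 genes passed in oscct and 4 in the difference, since 4 of the 8 genes have 2 rows. One fit of all libraries called 7666 IDs in ossh1, against 13220; it tested 10734 IDs, of which the fit of ossh1 and WT alone called 7359. Leaving out 1 library gave 5 to 7 genes in the difference, 6 to 7 in ossh1 and 8 to 8 in oscct, with 12250 to 12750 IDs in ossh1, 11336 to 11390 in oscct and 8962 to 9056 in the difference. Replicate numbers did not pair the samples (correlation of same-numbered deviations -0.062 to 0.013) and not every library correlated best with its own number. With the replicate block 12971, 11413 and 9057 IDs passed in ossh1, oscct and the difference, with 6, 8 and 7 of the genes. The unstated selection of rows limits every call in oscct and in the difference, which used the same rows. ETR4 without a filter had an adjusted p of 0.458 (edgeR).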

Other observations

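The CTR1-like gene on chromosome 2 was listed in 2 rows for oscct and CK, and the rows fell by different amounts. The smaller row had 59.04, 83.85 and 82.08 counts in oscct, against 168.7, 162.25 and 131.88 counts in CK, and the larger one 308.87, 337.36 and 297.01 counts in oscct, against 329.56, 375.48 and 341.64 counts in CK. The smaller row thus held 16.0, 19.9 and 21.7% of the counts of the gene in oscct, against 33.9, 30.2 and 27.9% in CK. The log2 fold change was -1.12 (SE 0.16) for the smaller row and -0.23 (SE 0.08) for the larger one; the difference between rows was not tested, and the sources used here do not say what separates the rows. The smaller row of ETR2 held 4.89, 3.7 and 3.28% of its counts in oscct, against 2.48, 2.02 and 2.84% in CK. For these genes the shares did not overlap between oscct and CK, as for 35.8% of 943 IDs with 2 rows and counts in every library, while for ETR3 and EIL2 they overlapped. The unrounded rows of EIL2 summed to whole numbers in all 6 libraries.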
